A study of Mus musculus with 12 samples.

Results

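Regulatory T cells (Tregs) of adult mice were compared between injured tendon and spleen across all genes. The comparison used 6 of the 12 RNA-seq libraries of the series, chosen by their labels: adult tendon libraries 1 to 3 and adult spleen libraries 1 to 3. All 6 came from C57BL/6 mice whose tendon had been injured 14 days earlier, so the spleen libraries are not from uninjured animals. Cells labelled Treg were sorted by flow cytometry and lysed at once. The other 6 libraries hold neonatal tendon and neonatal spleen Tregs of the same strain and day, with 3 libraries per group. The labels do not give the sort markers, the age of the adults in weeks or the number of animals in a library. They do not say whether the 3 libraries of a group came from separate animals, so p-values measure the spread between these libraries, which may be technical.

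Tregs are CD4 T cells that restrain other immune cells. They depend on the transcription factor Foxp3, on the high-affinity interleukin-2 receptor and on the inhibitory receptor Ctla4. In lymphoid organs most are resting-type cells that carry the lymph node homing receptor Ccr7. Tregs living in non-lymphoid tissue or damaged tissue are known for another set of genes: Il1rl1, the receptor of the alarmin interleukin-33, the inhibitory lectin receptor Klrg1, the transcription factors Gata3 and Rora, and tissue-homing chemokine receptors.

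Total counts in the 6 adult libraries lay between 2318068 and 3142053, so depth differed little between the tissues. Levels below are CPM, the counts of a gene per 1000000 counts of the TMM-scaled library. Adult tendon library 3 stood apart from adult tendon libraries 1 and 2. Genes of the B cell marker list took 0.187% and 0.535% of the counts in tendon libraries 1 and 2, 5.92% in tendon library 3, and 4.01% to 4.8% in the spleen libraries. The erythroid list took 0.32%, 0.445% and 4.44% in the tendon libraries and 2.18% to 3.62% in spleen. The macrophage and monocyte list took 0.0388%, 0.114% and 1.47% against 0.346% to 0.53%. Tendon library 3 was thus above every spleen library on all 3 lists, while tendon libraries 1 and 2 were below every spleen library. The T cell list took 1.04% and 0.959% of counts in tendon libraries 1 and 2, 0.564% in tendon library 3 and 0.867% to 1.06% in spleen. Because library 3 touches every result, each comparison is given with it and without it.

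**Figure D1:**
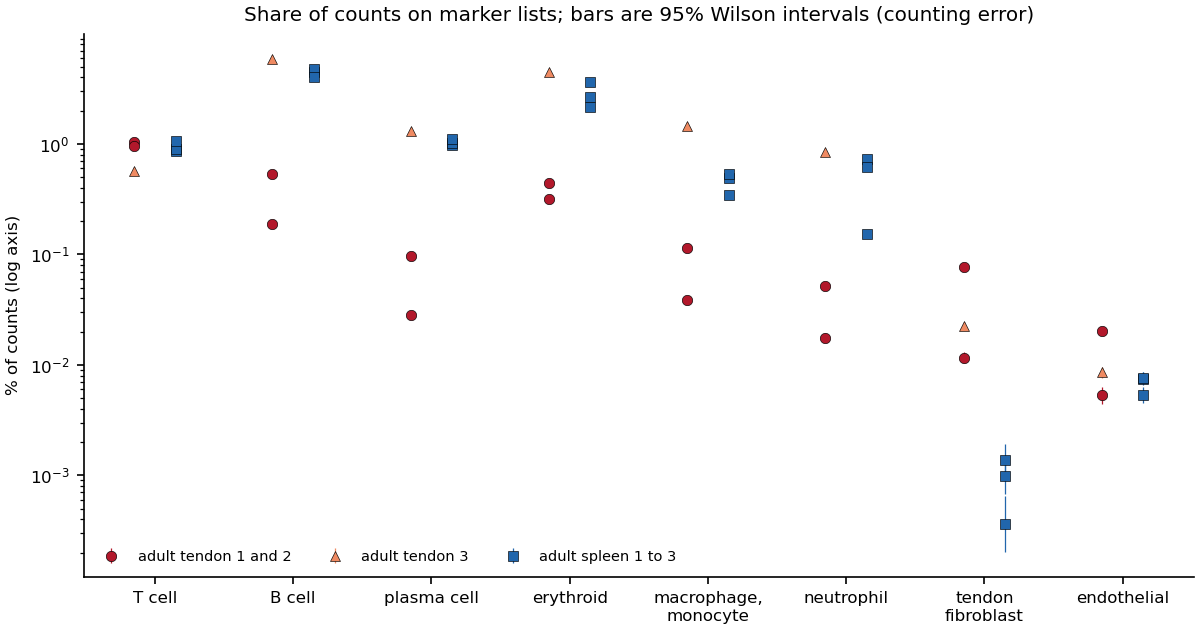
Share of counts (percent, log axis) on 8 marker lists in each adult library, with 95% Wilson intervals that cover counting error only. Tendon library 3 (triangle) lies above every spleen library on the B cell, erythroid, macrophage and monocyte lists, where tendon libraries 1 and 2 (circles) lie below them, and all 3 tendon libraries lie above spleen on the tendon fibroblast list.

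With all libraries, 349 of 13049 tested genes passed an adjusted p of 0.05 between adult tendon and adult spleen (2.67%), and these are the genes called different below. Of these, 320 were higher in tendon (2.45%) and 29 were lower (0.222%). Without tendon library 3, 2971 of 13956 tested genes were called (21.3%), 1356 higher (9.72%) and 1615 lower (11.6%). All 349 genes were also called without library 3, in the same direction. Over all tested genes the median difference was 0.004 on the log2 scale with library 3 and -0.11 without it. With the values expressed as TPM, the share of called genes that were higher moved from 45.6% to 82.5% without library 3, and the median log2 difference of all genes to 0.57. In 318 of the 349 called genes the 3 tendon libraries did not overlap the 3 spleen libraries, against 19.7% of all tested genes (11.5% higher and 8.2% lower in tendon). The calls rest on the same libraries, so this separation describes the called genes and is no added support. Of the 91 genes named below that were called with library 3, 38 kept the call whichever single library was left out. The count of 349 fell to 161 without tendon library 2, to 131, 135 and 143 without spleen library 1, 2 or 3, and to 51 in a fit of the 6 adult libraries alone. Without tendon library 3, the adult libraries alone gave 4230.

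**Figure D2:**
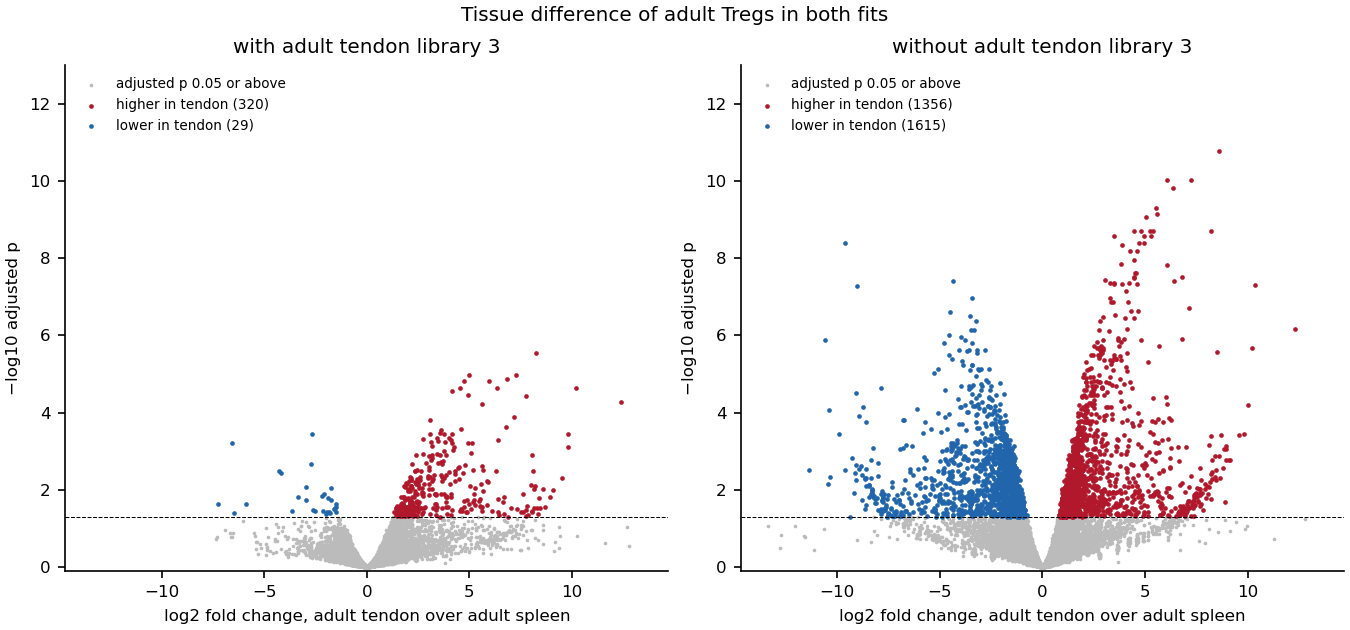
Every tested gene by its log2 fold change (adult tendon over adult spleen) and the negative log10 of its adjusted p, with tendon library 3 (left) and without it (right). Red and blue points are genes called higher and lower in tendon, 320 and 29 on the left, 1356 and 1615 on the right.

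Foxp3, which defines the lineage, was present in every library. It stood at 112, 107 and 48.0 CPM in adult tendon libraries 1, 2 and 3 and at 31.2, 38.0 and 37.4 CPM in the spleen libraries. All 3 tendon libraries were above the spleen libraries, with library 3 nearest to them. Its log2 difference came to 1.33 ± 0.48 (SE; adjusted p = 0.163) when library 3 was kept and 1.62 ± 0.43 (adjusted p = 0.0103) without it. Per 1000 counts of the T cell list, Foxp3 counts numbered 12.3, 12.5 and 5.70 in tendon and 3.24 to 3.32 in spleen. In bulk libraries fewer cells of a type and less RNA per cell cannot be told apart. Foxp3 shares exonic sequence with Flicr, and how reads in shared sequence were counted is not given in the sources used here.

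Of 18 genes of the Treg identity list, 1 was called higher and 2 lower with library 3, and 9 were higher and 2 lower without it. Over all tested genes, 2.45% were higher and 0.222% lower with library 3, and 9.72% and 11.6% without it. These shares are the base for every list count below. The list median was a log2 fold change of 0.73 and 1.01. Ctla4, the inhibitory receptor that competes for CD80 and CD86, was the gene called higher with library 3, and was called without it too. Its levels were 1474, 1268 and 492 CPM in tendon and 274, 196 and 250 CPM in spleen, so the lowest tendon library was still above spleen. The log2 fold change of Ctla4 was 2.17 ± 0.40 (adjusted p = 0.00551) and 2.5 ± 0.29 (adjusted p = 1.94e-06), and its call with library 3 was lost without spleen library 2. Il2ra, the interleukin-2 receptor alpha chain, reached 303 and 332 CPM in tendon libraries 1 and 2, 89.8 in library 3, and 177, 112 and 118 in spleen. Ikzf2, which encodes the transcription factor Helios, showed the same order, with 892 and 951 CPM, then 215, against 339, 373 and 391. For both genes library 3 was below every spleen library. Neither was called with library 3, while without it their log2 fold changes were 1.22 ± 0.31 (adjusted p = 0.00739) and 1.32 ± 0.30 (adjusted p = 0.00321). Without library 3, the Foxp3 call was lost when tendon library 1 was also left out, and that of Il2ra when tendon library 1 or 2 was. Lrrc32, the surface receptor that holds latent TGF-beta, fell furthest out of line in library 3, at 2.38 CPM against 118 and 130 in libraries 1 and 2 and 46.1 to 53.1 in spleen.

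The tissue-effector Treg list showed the highest share of called members of the 21 functional lists in the fit with library 3. All lists were chosen with earlier results of these data known, so this rank describes them and is no support. Of its 30 genes, all tested, 19 were called higher and none lower with library 3, and 26 were higher and none lower without it. The median log2 fold change was 2.16 and 2.46. The 19 fell to 11 without spleen library 1 and to 5 in a fit of the adult libraries alone. Without tendon library 3, the adult libraries alone called 27. Batf and Irf4, transcription factors known to drive effector Treg programmes, passed in neither fit (log2 fold changes of 0.34 ± 0.40 and 0.58 ± 0.46 with library 3, adjusted p = 0.738 and 0.591).

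Among the receptors of this list, Il1rl1 differed most. Its levels were 508, 399 and 60.4 CPM in tendon and 5.82, 6.41 and 7.34 CPM in spleen. The tendon libraries were all far above spleen, with library 3 the lowest of them. The log2 fold change was 5.62 ± 0.63 (adjusted p = 6.02e-05) with library 3 and 6.10 ± 0.36 (adjusted p = 9.41e-11) without it. Klrg1 stood at 1354, 1432 and 757 CPM against 127, 159 and 136 (log2 fold change 3.07 ± 0.37, adjusted p = 0.000153). The costimulatory receptor Icos stood at 1722, 1658 and 694 CPM against 255, 358 and 368 (2.05 ± 0.38, adjusted p = 0.00579). Neither gene overlapped between the tissues. Tnfrsf9, the costimulatory receptor 4-1BB of activated T cells, was also higher, at 2203, 2462 and 788 CPM against 280, 326 and 397 (2.44 ± 0.41, adjusted p = 0.00304). Tnfrsf8 (CD30) was higher by 3.93 ± 0.84 on the log2 scale (adjusted p = 0.0153), from at most 3.94 CPM in spleen. The calls of Icos and Tnfrsf8 were lost without spleen library 1, and that of Tnfrsf8 also without tendon library 2 or spleen library 3.

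The transcription factors of the list differed in where library 3 lay. Rora was at 952, 782 and 167 CPM in tendon and 29.9, 40.4 and 64.6 CPM in spleen (log2 fold change 3.81 ± 0.54, adjusted p = 0.000566). Gata3 was at 492, 398 and 79.4 CPM against 62.8, 56.2 and 90.8, so library 3 lay inside the spleen range, and the log2 fold change was 2.21 ± 0.49 (adjusted p = 0.0209). Prdm1, which encodes Blimp-1, behaved in the same way, with 116 and 136 CPM in libraries 1 and 2 and 17.1 in library 3, inside the spleen range of 10.4 to 18.2 (2.54 ± 0.57, adjusted p = 0.0209). Calls of Gata3 and Prdm1 were lost without tendon library 2 or without any single spleen library, and that of Gata3 also without tendon library 1. Pparg, the nuclear receptor known from adipose tissue Tregs, was at 28.3, 23.5 and 20 CPM against 7.07, 5.91 and 9.78. Its libraries did not overlap, but the adjusted p was 0.102 with library 3 and 0.0294 without it (log2 fold changes 1.65 ± 0.51 and 1.75 ± 0.56), and the latter call was lost without any single other adult library but spleen library 3. Nfil3, a bZIP transcription factor, showed an adjusted p of 0.0519 with library 3, and 4.15 ± 0.63 (adjusted p = 0.000155) without it.

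Secreted and effector products of the list were higher as well. Il10, the anti-inflammatory cytokine, was at 50.9, 80.0 and 55.1 CPM in tendon and 5.82, 4.93 and 3.14 CPM in spleen. Here library 3 lay between libraries 1 and 2, and the log2 fold change of 3.75 ± 0.50 (adjusted p = 0.000363) hardly moved without it (3.82 ± 0.48, adjusted p = 4.35e-06). Penk, the enkephalin precursor, was likewise close in all 3 tendon libraries, at 1164, 1079 and 890 CPM against 222, 301 and 218 (2.08 ± 0.38, adjusted p = 0.00466). The calcium-binding protein gene S100a4 was at 329, 304 and 311 CPM against 37.0, 99.1 and 79.7 (2.13 ± 0.41, adjusted p = 0.00797). Penk and S100a4 lost their calls without spleen library 1, and Penk also without spleen library 3. Fgl2, which encodes a secreted suppressive protein of Tregs, was higher by 2.48 ± 0.46 (adjusted p = 0.00601), a call lost without spleen library 2 or 3.

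Gzmb, which encodes the cytotoxic protease granzyme B, showed the highest log2 fold change of the list. It was at 2430, 2715 and 690 CPM in tendon and at 44.9, 24.1 and 23.4 CPM in spleen, with no overlap. The log2 fold change was 5.98 ± 0.58 (adjusted p = 1.5e-05) with library 3 and 6.37 ± 0.40 (adjusted p = 1.53e-10) without it. Emp1, an epithelial membrane protein gene, was at 15.1, 39.5 and 29.9 CPM in tendon and had no count in the spleen libraries, which makes it at least 22.4-fold higher against a floor of 3 counts per library. Tnfaip3, the ubiquitin-editing inhibitor of NF-kB also called A20, was at 1065, 956 and 126 CPM against 9.97, 33.0 and 19.6. For Tnfaip3 library 3 was far below libraries 1 and 2 and still above spleen, and the log2 fold change was 5.10 ± 0.69 (adjusted p = 0.000609).

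The promoters of these 3 genes are shown because each holds the AP-1 type motif TGANTCA, and genes of the AP-1 transcription factor family also differed between the tissues. The windows run from 250 bases before to 50 bases after the RefSeq start (GRCm38.p6), 5′ to 3′ on the gene's strand, with motif matches in capitals. Gzmb lies at chr14:56262285-56262584 on the minus strand, Emp1 at chr6:135362681-135362980 on the plus strand and Tnfaip3 at chr10:19015361-19015660 on the minus strand.
Gzmb: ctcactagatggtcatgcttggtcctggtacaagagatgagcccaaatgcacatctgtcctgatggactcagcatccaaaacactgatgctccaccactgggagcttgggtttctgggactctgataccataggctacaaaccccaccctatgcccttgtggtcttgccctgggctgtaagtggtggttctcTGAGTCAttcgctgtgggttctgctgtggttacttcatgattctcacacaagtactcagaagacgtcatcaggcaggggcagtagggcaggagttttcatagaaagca
Emp1: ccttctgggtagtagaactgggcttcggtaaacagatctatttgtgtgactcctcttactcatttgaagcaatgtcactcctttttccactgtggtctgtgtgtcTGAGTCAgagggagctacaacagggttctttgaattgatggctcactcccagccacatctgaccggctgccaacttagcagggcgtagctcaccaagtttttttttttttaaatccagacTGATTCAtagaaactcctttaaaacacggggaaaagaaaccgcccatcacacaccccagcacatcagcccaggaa
Tnfaip3: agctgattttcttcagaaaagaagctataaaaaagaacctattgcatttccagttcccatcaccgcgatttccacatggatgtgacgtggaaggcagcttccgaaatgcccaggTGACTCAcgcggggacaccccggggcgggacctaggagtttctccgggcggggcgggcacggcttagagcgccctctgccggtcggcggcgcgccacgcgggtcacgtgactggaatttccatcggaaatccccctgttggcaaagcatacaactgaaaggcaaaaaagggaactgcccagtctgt
The match begins 58 bases before the start in Gzmb and 136 bases before it in Tnfaip3, and Emp1 has matches that begin 145 and 25 bases before it. A gene was counted as holding the motif if any of its windows did, on either strand. The motif was found in 23 of the 215 genes with a window that were called higher with library 3 (10.7%). It was found in 1 of 19 of those called lower (5.26%) and in 6.24% of all tested genes with a window. Without library 3 the shares were 8.16%, 6.68% and 6.48%. Counted by window and not by gene, the share over all promoter windows was 7.81%, so it is not the same measure. A match describes these letters only and was not tested as a binding site.

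The genes with the largest log2 fold changes were chosen by a rule on expression and separation, the 8 highest and 8 lowest in each fit. The expression cut-off used the average over all libraries of the fit, neonatal ones included, so a gene could pass it through the neonatal libraries. The 8 higher genes were the same in both fits: Tff1, Ednrb, Emp1, Col18a1, Hspa1a, Hspa1b, Jcad and Pcsk1. Tff1, a secreted trefoil peptide known from stomach mucus, was at 148, 162 and 192 CPM in tendon and had no count in the spleen libraries, at least 133-fold higher. Ednrb, the endothelin receptor type B, was at 43.7, 36.8 and 29.0 CPM and also had no count in spleen, at least 29.0-fold higher. Pcsk1, a prohormone convertase, was at 205, 143 and 29.5 CPM and at most 0.831 CPM in spleen, at least 99.8-fold higher. Tff1, Ednrb and Emp1 were as high in library 3 as in libraries 1 and 2 or nearly so, while Pcsk1 was lower there. Col18a1, which encodes the collagen that yields endostatin, was at 32.8, 40.5 and 9.03 CPM (at least 21.8-fold higher), and Jcad, a junction-associated protein gene of endothelial cells, at 57.7, 67.4 and 8.56 CPM (at least 35.4-fold higher).

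Hspa1a and Hspa1b, the inducible heat-shock protein 70 genes, completed the 8. Hspa1a was at 1730, 2248 and 631 CPM in tendon and 5.82, 3.94 and 5.24 CPM in spleen (log2 fold change 8.25 ± 0.64, adjusted p = 2.9e-06). Hspa1b was at 2702, 3134 and 261 CPM against 6.65, 10.8 and 3.49. These genes are near-identical neighbours 10 kb apart on chromosome 17, so the split of reads between them is uncertain. Of the 15 genes of the heat-shock list, 5 were called higher and none lower with library 3, and 7 and none without it, with medians of 0.69 and 1.02. The others with library 3 were Hsph1, Hspb1 and Hsp90aa1. Hsph1, a large heat-shock co-chaperone, was at 394, 338 and 69.9 CPM against 29.9, 33.5 and 34.9 (3.03 ± 0.50, adjusted p = 0.0025). The small heat-shock protein gene Hspb1 was higher by 4.42 ± 0.73 (adjusted p = 0.00273). Hsp90aa1, the inducible HSP90, was higher by 1.46 ± 0.36 (adjusted p = 0.0356), a call lost without any single adult library but tendon library 3, without neonatal tendon library 2 and without any single neonatal spleen library. Hspa1b lost its call without spleen library 1. The 5 fell to 3 without spleen library 1 or in a fit of the adult libraries alone. The metallothionein genes Mt1 and Mt2, which bind zinc and respond to metals and stress, stand 5.5 kb apart on chromosome 8 and were picked after their values were seen. Mt1 was at 685, 660 and 699 CPM in tendon and 17.0, 19.2 and 29.0 CPM in spleen (4.96 ± 0.45, adjusted p = 1.06e-05), with library 3 level with libraries 1 and 2. Mt2 was at 110, 104 and 86.5 CPM and at most 2.45 CPM in spleen.

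Genes of T cell receptor and NF-kB signalling were examined next. Of 24 tested members of that list, 10 were called higher and none lower with library 3, with a median log2 fold change of 1.51. Without it, 16 of 25 were higher and 3 lower, with a median of 1.48. Nr4a1, an orphan nuclear receptor induced by antigen receptor signalling, was at 495, 528 and 51.3 CPM in tendon and 12.5, 7.39 and 19.2 CPM in spleen (4.77 ± 0.72, adjusted p = 0.00226). Bhlhe40, a transcription factor of activated T cells, was at 859, 684 and 50.9 CPM against 32.8, 17.2 and 42.3 (4.10 ± 0.79, adjusted p = 0.0158). Dusp4, a phosphatase that limits MAP kinase signalling, was at 103, 131 and 21.9 CPM against 7.07, 4.93 and 2.10. All 3 genes were far lower in library 3 than in libraries 1 and 2, and still above spleen. The NF-kB subunit gene Rel was higher by 2.52 ± 0.50 (adjusted p = 0.00926), and the NF-kB inhibitor genes Nfkbiz and Nfkbia by 2.59 ± 0.48 (adjusted p = 0.00565) and 1.35 ± 0.34 (adjusted p = 0.0377). Traf1, an adaptor of TNF receptors, was higher by 1.67 ± 0.38 (adjusted p = 0.0233). Ier3, a stress-induced gene, varied most, at 9.80, 231 and 165 CPM in tendon and at most 1.40 CPM in spleen. Egr2, an early growth response factor, was among the 3 lower genes without library 3, at 3.39 and 0.340 CPM against 27.0, 9.86 and 33.2 (-3.68 ± 0.78, adjusted p = 0.00168). Without tendon library 2 or any single spleen library the Bhlhe40 call was lost, and without any single adult library but tendon library 3 those of Traf1 and Nfkbia. Rel lost its call without spleen library 2 or 3, Ier3 without spleen library 1 or 2, and Nfkbia also without 4 of the 6 neonatal libraries. The count of 10 fell to 4 without spleen library 2, and to none in a fit of the adult libraries alone, which without tendon library 3 called 18.

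AP-1 and other immediate early genes gave 6 higher and none lower of 18 with library 3, and 8 higher and 1 lower without it, with medians of 1.07 and 1.0 (1.01 and 0.92 with the genes at the floor set to their bound). Atf3, a stress-induced bZIP factor, was at 35.1, 41.5 and 58.0 CPM in tendon and 2.49, 4.43 and 3.84 CPM in spleen (3.63 ± 0.47, adjusted p = 0.00029), and library 3 was the highest. Jun was at 128, 148 and 82.7 CPM against 36.6, 36.5 and 30.7 (1.79 ± 0.38, adjusted p = 0.0155). Junb was at 1094, 1190 and 148 CPM against 175, 133 and 186, so library 3 lay inside the spleen range (2.30 ± 0.56, adjusted p = 0.036). Junb overlaps an exon of Prdx2, and reads of the pair may be mixed. Fosl2 and Klf6 were higher by 3.33 ± 0.73 (adjusted p = 0.0236) and 1.44 ± 0.34 (adjusted p = 0.0292). The 6 fell to 1 (Atf3) without tendon library 2 or any single spleen library, and a fit of the adult libraries alone also called 1. Junb and Klf6 lost their calls without tendon library 1 too, Klf6 without neonatal spleen library 3 and Junb without 5 of the 6 neonatal libraries.

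**Figure D3:**
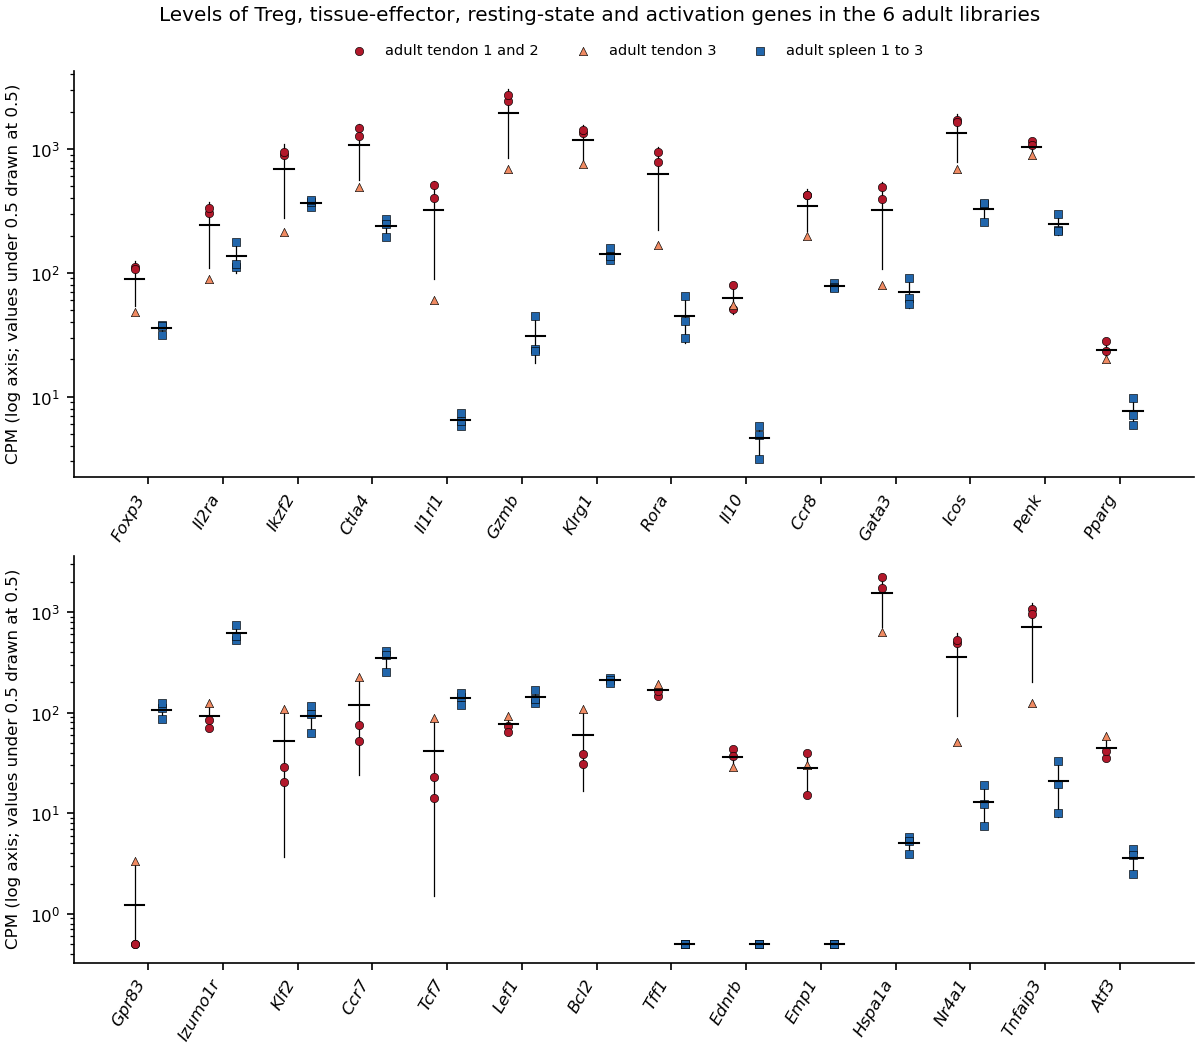
CPM (log axis) of 28 genes in each adult library: circles are tendon libraries 1 and 2, triangles tendon library 3, squares spleen libraries 1 to 3, bars the mean and vertical lines the SD of 3 libraries. Triangles lie near the circles for Il10, Penk, Tff1 and Atf3, and between the circles and the squares for Il1rl1, Gzmb, Nr4a1, Tnfaip3 and Tcf7.

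Chemokine receptors, which direct T cell homing, moved in both directions. Of 20 tested, 5 were called higher and 1 lower with library 3, and 7 higher and 4 lower without it, with medians of 0.65 and 0.38. Ccr2, the receptor of the monocyte chemokine Ccl2, was at 1525, 1439 and 148 CPM in tendon and 44.0, 21.7 and 27.6 CPM in spleen (5.06 ± 0.71, adjusted p = 0.0011). Ccr1, which binds inflammatory CC chemokines and lies 133.3 kb from Ccr2 on chromosome 9, was at 126, 132 and 71.8 CPM against 15, 14.8 and 18.9 (2.76 ± 0.38, adjusted p = 0.000496). In both genes library 3 was the lowest tendon library and above spleen. Ccr8, a receptor of tissue and tumour Tregs, was at 422, 424 and 198 CPM against 82.7, 76.9 and 74.8 (2.15 ± 0.42, adjusted p = 0.00778), and Cxcr6, which binds Cxcl16, at 529, 490 and 127 CPM against 91.8, 73.4 and 59.4 (2.35 ± 0.44, adjusted p = 0.00625). Cxcr3, the receptor of the interferon-induced chemokines, was the lower gene, at 66.0, 45.9 and 97.5 CPM against 210, 296 and 271 (-1.89 ± 0.41, adjusted p = 0.0168). Without library 3, Ccr4 and Cxcr4 were also higher (1.63 ± 0.38, adjusted p = 0.00369, and 2.75 ± 0.54, adjusted p = 0.000989) and the B cell follicle receptor Cxcr5 was lower (-3.91 ± 0.72, adjusted p = 0.000741). Ccr8 lost its call without any single spleen library, Cxcr6 without spleen library 3, and Cxcr3 without tendon library 1 or 2 or spleen library 2 or 3. A fit of the adult libraries alone called 1 of the list.

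Of 16 tested chemokine genes, 2 were called higher with library 3 and none lower, with a median of 2.60, and 2 higher and 2 lower without it, with a median of 0.90. Cxcl2, a neutrophil attractant, was at 172, 242 and 414 CPM in tendon and 2.08, 1.48 and 1.75 CPM in spleen (7.25 ± 0.66, adjusted p = 1.06e-05). Cxcl10, an interferon-induced T cell attractant, was at 47.1, 116 and 516 CPM against 14.1, 23.7 and 27.2 (3.38 ± 0.76, adjusted p = 0.0335). Library 3 was the highest for both chemokines. The summed level of the list was 461, 1289 and 5022 CPM in tendon and 391 to 759 CPM in spleen, and the macrophage and monocyte share was also highest in library 3 (1.47%, against 0.0388% and 0.114%), whose part was not tested. The count of 2 rose to 5 without tendon library 1. The Cxcl10 call was lost without any single spleen library of either age and without neonatal tendon library 1.

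Among 18 integrins and adhesion receptors, 4 were higher and none lower with library 3, and 6 and 2 without it, with medians of 0.48 and 0.75. Itgae, the CD103 chain that binds E-cadherin, was at 416, 405 and 69.9 CPM against 49.0, 28.1 and 32.8 (3.02 ± 0.51, adjusted p = 0.00304). Itgb3 was at 125, 117 and 49.4 CPM against 16.2, 29.1 and 18.2 (2.20 ± 0.43, adjusted p = 0.0088). Its partner chain of the vitronectin receptor, Itgav, was at 388, 278 and 46.6 CPM against 26.2, 40.9 and 34.9 (2.81 ± 0.64, adjusted p = 0.0288). Cd44, the hyaluronan receptor of activated T cells, was at 752, 602 and 275 CPM against 116, 117 and 84.9 (2.36 ± 0.41, adjusted p = 0.0033). No library of the 4 genes overlapped between the tissues. Itgb8, whose integrin activates latent TGF-beta, was higher without library 3 (2.37 ± 0.48, adjusted p = 0.00119), and in library 3 it stood at 3.80 CPM, below every spleen library. Itgav lost its call without any single adult library but tendon library 3, and Itgb3 without spleen library 1 or 3. Without spleen library 1 or 3 the 4 calls fell to 2, and a fit of the adult libraries alone had none. Without tendon library 3, the adult libraries alone called 8 higher and 2 lower.

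Of 16 coinhibitory receptors, 4 were called higher and none lower with library 3, and 6 and 2 without it, with medians of 0.02 and 0.19. Besides Ctla4 these were Havcr2 (TIM-3), Lilrb4a and Cd274, the ligand PD-L1. Havcr2 was at 98.8, 89.2 and 42.8 CPM against 8.31, 8.87 and 1.05 (3.68 ± 0.66, adjusted p = 0.00466). Lilrb4a was at 914, 907 and 570 CPM against 129, 140 and 94.0 (2.72 ± 0.42, adjusted p = 0.0012). Cd274 was higher by 1.86 ± 0.48 (adjusted p = 0.0445), a call lost without any single adult library but tendon library 3, without neonatal tendon library 1 and without any single neonatal spleen library. Pdcd1, which encodes PD-1, was at 677, 598 and 164 CPM against 212, 134 and 186, and passed without library 3 (1.84 ± 0.33, adjusted p = 0.000369) and not with it (1.44 ± 0.46, adjusted p = 0.11). Among 18 costimulatory receptors, 3 were higher with library 3 and none lower, namely Icos, Tnfrsf8 and Tnfrsf9, and 7 were higher and 1 lower without it, with medians of 0.24 and 0.43. The coinhibitory count fell to 2 without spleen library 2 and the costimulatory count to 1 without spleen library 1. In a fit of the adult libraries alone the counts were 1 and 0.

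The type 2 list gave the highest share after the tissue-effector list with library 3. As both lists were chosen with earlier results known, this rank only describes them. Of 10 tested, 5 were called higher and none lower with library 3, and 9 of 11 without it, with medians of 2.18 and 2.66 (2.18 and 2.43 with genes at the floor at their bound). Gata3, Il1rl1 and Ccr8 are members of the tissue-effector list too. Crem, a cAMP-responsive transcription factor, was at 623, 547 and 220 CPM against 26.2, 51.8 and 41.2 (3.54 ± 0.46, adjusted p = 0.00033). Hlf, a PAR bZIP factor, was at 17.7, 11.9 and 6.66 CPM with no count in spleen, at least 9.62-fold higher. Of 13 type 17 genes, 3 were higher with library 3 and none lower (Rora, Il23r and Stat3), and 9 of 14 were higher and 1 lower without it, with medians of 1.84 and 2.36. Il23r, the interleukin-23 receptor, was at 29.0, 36.8 and 6.18 CPM and at most 1.75 CPM in spleen (4.91 ± 1.20, adjusted p = 0.0384). Stat3 was higher by 1.84 ± 0.48 (adjusted p = 0.0489), overlaps an exon of Stat5a and lost its call without any single other library of the series. Ahr, a ligand-activated transcription factor of type 17 cells, passed without library 3 (2.44 ± 0.50, adjusted p = 0.00142). The cytokine genes Il17a and Il17f were low, at 2.64 and 12.2 CPM and at 3.39 and 14.6 CPM in tendon libraries 1 and 2, with no count in spleen. Hlf lost its call without spleen library 1 or 3, and Il23r without any single adult library but tendon library 3 and without neonatal spleen library 1 or 3. The type 2 count fell to 2 without spleen library 1 or 3 and in a fit of the adult libraries alone. The type 17 count fell to 1 without tendon library 2, any single spleen library or neonatal spleen library 1 or 3, and to 0 in a fit of the adult libraries alone.

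Of 13 type 1 genes, 4 were higher and 1 lower with library 3, and 5 and 2 without it, with medians of 0.25 and 0.53. Gzmb and the lower gene Cxcr3 are described above. Il18rap, a subunit of the interleukin-18 receptor, was at 296, 189 and 44.2 CPM against 8.31, 12.3 and 9.08 (4.16 ± 0.59, adjusted p = 0.000622). The other subunit gene, Il18r1, lies 14.5 kb away and lies between Il18rap and Il1rl1 on chromosome 1, 137 bases from Il1rl1. Il18r1 was at 153, 113 and 38.0 CPM against 42.8, 25.1 and 44.0, so the groups overlapped, and it passed only without library 3 (1.82 ± 0.39, adjusted p = 0.002, against 1.44 ± 0.47, adjusted p = 0.125), a call lost when tendon library 1 was also left out. Hopx, a homeodomain protein gene of induced Tregs, was at 338, 347 and 40.4 CPM against 46.1, 38.0 and 48.2 (2.46 ± 0.55, adjusted p = 0.0209), a call lost without any single adult library but tendon library 3. The count of 5 fell to 3 without tendon library 1 or 2 or without spleen library 2 or 3, and to 1 in a fit of the adult libraries alone.

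Growth factors and repair genes gave 3 higher and none lower of 18 with library 3, and 8 and 1 without it. Their medians were 1.63 and 1.25, or 1.28 and 0.83 with genes at the floor at their bound. Furin, the proprotein convertase that processes pro-TGF-beta, was at 35.8, 28.9 and 10.5 CPM against 7.07, 7.39 and 5.24 (1.94 ± 0.48, adjusted p = 0.0349). Csf2, which encodes GM-CSF, was at 15.5, 9.19 and 3.33 CPM, at least 7.41-fold higher than in spleen. Vegfa was low, at 1.51, 3.06 and 7.61 CPM with no count in spleen, at least 3.23-fold higher. No call of this list was left without tendon library 2, without any single spleen library or in a fit of the adult libraries alone. Furin and Csf2 also lost theirs without tendon library 1 or neonatal tendon library 1. The Furin call was lost without any single neonatal spleen library, and that of Vegfa without neonatal tendon library 2.

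Of 22 glycolysis and hypoxia genes, 5 were higher and none lower with library 3, and 8 and none without it, with medians of 0.68 and 0.85. Hif1a, the oxygen-regulated transcription factor, was at 888, 742 and 161 CPM against 92.7, 94.6 and 108 (2.60 ± 0.47, adjusted p = 0.00466). The glucose transporter gene Slc2a3 was at 155, 123 and 35.6 CPM against 22.9, 21.2 and 29.7 (2.08 ± 0.46, adjusted p = 0.0204). Slc16a3, the lactate exporter MCT4, was higher by 2.19 ± 0.53 (adjusted p = 0.0315), and Egln3, an oxygen-sensing prolyl hydroxylase, by 3.08 ± 0.77 (adjusted p = 0.0415). Egln3 was at 3.80 CPM in library 3, inside the spleen range, and lost its call without any single other library of the series. Slc2a3 and Slc16a3 lost theirs without any single adult library but tendon library 3, and Slc16a3 without neonatal tendon library 1. The 5 fell to 1 without tendon library 2 or any single spleen library, and to none in a fit of the adult libraries alone. Over the 19 sterol synthesis genes the median was 0.08 with library 3.

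Survival and cell death genes gave 5 higher and 1 lower of 20 with library 3, and 7 and 3 without it, with medians of 0.26 and 0.23. Cdkn1a, the p21 cell-cycle inhibitor, was at 227, 337 and 313 CPM against 7.07, 15.3 and 15.4 (4.54 ± 0.46, adjusted p = 2.27e-05). Gadd45b was at 766, 829 and 398 CPM against 76.1, 89.7 and 69.2 (3.08 ± 0.41, adjusted p = 0.000352). The antiapoptotic genes changed unequally. Bcl2l1, which encodes Bcl-xL, was at 173, 197 and 66.5 CPM against 55.7, 43.9 and 37.4 (1.67 ± 0.40, adjusted p = 0.0307). Bcl2 was at 30.9, 39.1 and 109 CPM against 222, 209 and 199 (-1.82 ± 0.46, adjusted p = 0.0411). Each kept its groups apart, in opposite directions. Both calls, and that of Birc2 below, were lost without tendon library 1 or 2 or any single spleen library. The Bcl2 call was also lost without neonatal tendon library 2 or any single neonatal spleen library. That of Bcl2l1 was also lost without neonatal spleen library 2 or 3. The inhibitor of apoptosis genes Birc2 and Birc3 stood at 2.24 ± 0.51 (adjusted p = 0.0246) and 1.37 ± 0.37 (adjusted p = 0.0601). Pmaip1, the BH3-only protein Noxa, was at 279 and 284 CPM in tendon libraries 1 and 2 and at 12.8 in library 3, inside the spleen range of 10.3 to 15 (3.91 ± 0.89, adjusted p = 0.0418), and its call was lost without any single adult library but tendon library 3 and without 5 of the 6 neonatal libraries.

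**Figure D4:**
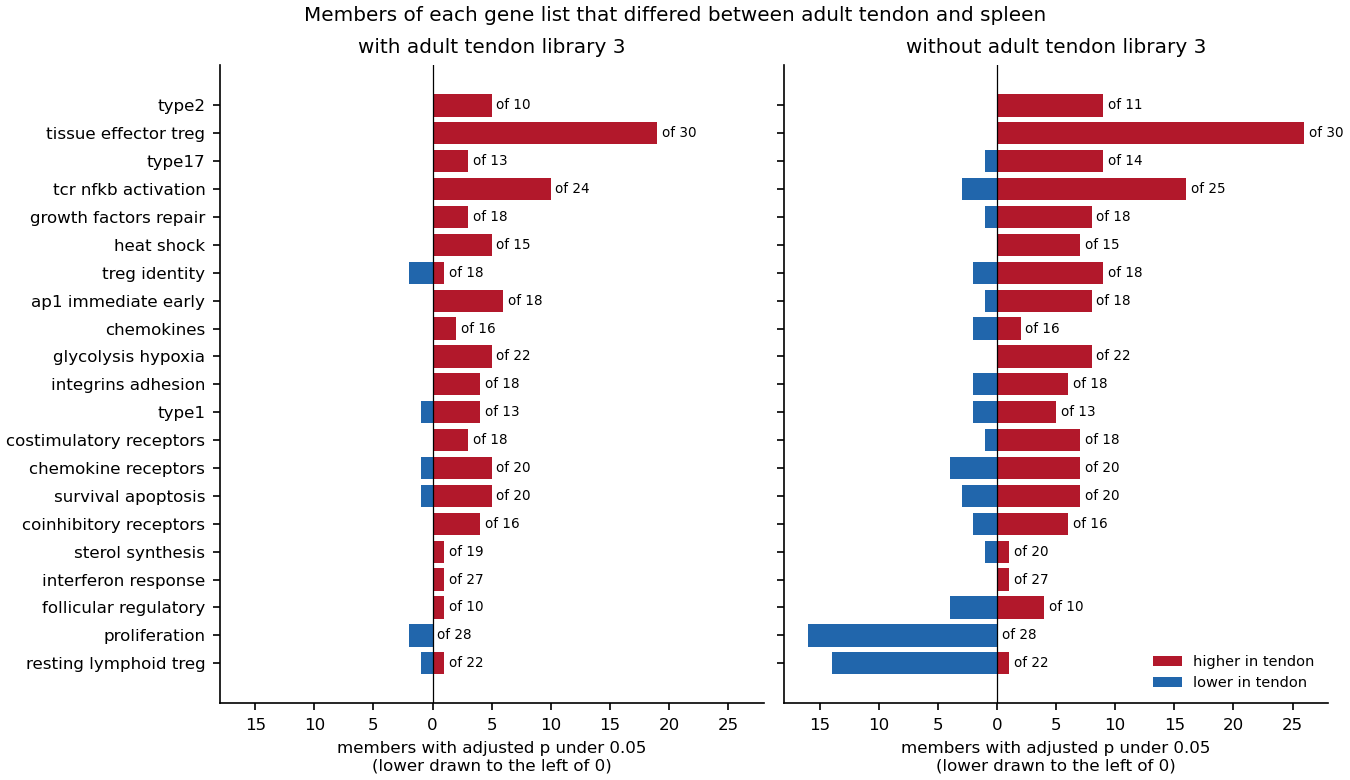
Number of members of each of the 21 functional lists called higher (red, to the right) or lower (blue, to the left) in adult tendon, with tendon library 3 (left panel) and without it (right panel), with the number tested beside each bar. The tissue-effector list has 19 and 26 higher, the proliferation list 2 and 16 lower and the resting lymphoid list 1 and 14 lower.

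Calls of resting lymphoid Treg genes depended on library 3. Of 22 tested, 1 was higher (Il7r) and 1 lower (Bcl2) with library 3, with a median of -0.88, and 1 higher and 14 lower without it, with a median of -1.92. Ccr7 was at 76.2, 52.4 and 227 CPM in tendon and 414, 253 and 374 CPM in spleen. Tcf7, a transcription factor of naive and memory T cells, was at 23.0, 14.3 and 87.9 CPM against 118, 144 and 157. In both, all tendon libraries were below spleen and library 3 was nearest to it. With library 3 the log2 fold changes were -1.55 ± 0.50 and -1.75 ± 0.71 (adjusted p = 0.114 and 0.248). Without it they were -2.44 ± 0.41 and -2.92 ± 0.58 (adjusted p = 0.000182 and 0.0023). Lef1, a relative of Tcf7, passed without library 3 (-1.07 ± 0.31, adjusted p = 0.0173), as did Klf2, which sustains homing and exit receptor expression (-1.92 ± 0.39, adjusted p = 0.00127), Klf3 (-2.85 ± 0.45, adjusted p = 7.99e-05) and Bach2, a repressor that holds T cells in a resting state (-4.09 ± 0.77, adjusted p = 0.000821). The Lef1 call was lost when tendon library 1 or 2 or spleen library 2 was also left out, on the TPM scale (-0.18) and with scaling to the T cell list, and that of Klf2 without tendon library 1 and on the TPM scale. For Klf2, Klf3 and Bach2, library 3 lay inside the spleen range, so the 3 tendon libraries overlapped spleen. Il7r, the interleukin-7 receptor, went the other way, at 627, 556 and 276 CPM against 99.7, 152 and 152 (1.85 ± 0.36, adjusted p = 0.00834), a call lost without spleen library 1. With library 3 no call of the list was left without spleen library 1 or in a fit of the adult libraries alone. On the TPM scale 8 of the list were lower without library 3.

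Among the 8 lower genes of the rule in the fit with library 3 were Gpr83, Gsta4, Izumo1r, Ckap2l, Cdca5, P2rx7 and Tbc1d4. Gpr83, a G protein-coupled receptor known as a marker of Tregs, was at 0.377, 0 and 3.33 CPM in tendon and 110, 87.2 and 125 CPM in spleen (-6.57 ± 0.87, adjusted p = 0.000609). Izumo1r, which encodes folate receptor 4 and is also used as a Treg marker, was at 70.9, 84.7 and 125 CPM against 531, 742 and 573 (-2.72 ± 0.44, adjusted p = 0.0021). The genes are neighbours on chromosome 9, 15 kb apart with 0 coding genes between them, and both are members of the Treg identity list. All 3 tendon libraries, library 3 included, were far below spleen in both. Gsta4, a glutathione transferase, was at 0.754, 2.04 and 5.23 CPM against 34.9, 69.5 and 40.5 (-4.20 ± 0.74, adjusted p = 0.00373). P2rx7, the ATP-gated channel that can trigger death of Tregs, was at 6.03, 8.17 and 28.1 CPM against 73.2, 67.5 and 51.0 (-2.20 ± 0.46, adjusted p = 0.0146). Tbc1d4, a Rab GTPase-activating protein of glucose transporter traffic, was at 8.29, 18.4 and 59.4 CPM against 106, 146 and 121 (-2.12 ± 0.52, adjusted p = 0.0351). P2rx7 lost its call without tendon library 1 or 2 or spleen library 1 or 2. Tbc1d4 lost its call without any single adult library but tendon library 3. Its call was also lost without neonatal tendon library 1 or 2 or any single neonatal spleen library.

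Proliferation genes that passed the test were lower in tendon. Ckap2l and Cdca5 of those above serve chromosome segregation and cohesion. Ckap2l was at 3.77, 2.38 and 9.03 CPM against 20.8, 39.4 and 32.5 (-2.63 ± 0.64, adjusted p = 0.0335), and Cdca5 at 3.77, 2.72 and 7.61 CPM against 35.3, 22.2 and 23.1 (-2.53 ± 0.62, adjusted p = 0.0357). Both lost their calls without any single adult library but tendon library 3. The Ckap2l call was also lost without neonatal spleen library 1 or 2, and that of Cdca5 without neonatal spleen library 1 or 3. Of the 28 genes of the proliferation list, none was higher and 2 were lower with library 3, with a median of -0.81, and 16 were lower without it, with a median of -1.55. The 2 were Rrm2, a subunit of ribonucleotide reductase, at 25.3, 34.0 and 47.1 CPM against 123, 104 and 128 (-1.74 ± 0.34, adjusted p = 0.00878), and the mitotic cyclin Ccnb1, at 22.6, 7.49 and 48.0 CPM against 90.6, 91.7 and 128 (-2.0 ± 0.51, adjusted p = 0.0418). Cdk1, its kinase, was at 11.3 and 6.12 CPM in libraries 1 and 2, and at 106 in library 3, inside the spleen range of 92.6 to 121. Without library 3, Cdk1 was lower by 3.67 on the log2 scale (-3.67 ± 0.44, adjusted p = 2.54e-06), Aurkb by 3.06 (-3.06 ± 0.57, adjusted p = 0.000559) and Ube2c by 3.17 (-3.17 ± 0.48, adjusted p = 6.23e-05). Mki67, the standard marker of cycling cells, was at 85.2, 60.9 and 117 CPM against 65.7, 86.2 and 86.6, overlapped between the tissues and passed in neither fit (log2 fold changes 0.14 ± 0.32 and -0.13 ± 0.30, adjusted p = 0.879 and 0.798). The 2 calls were lost without tendon library 1 or 2 or spleen library 1 or 3 and in a fit of the adult libraries alone. Ccnb1 also lost its call without spleen library 2, neonatal tendon library 1 or 2, or any single neonatal spleen library. On the TPM scale 4 members of the list were lower without library 3 in place of 16.

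Of 27 interferon response genes, 1 was higher and none lower with library 3, and the same counts held without it, with medians of 0.25 and -0.05. That gene was Ifit1, at 55.8, 120 and 78.0 CPM against 34.5, 13.8 and 13.6 (2.03 ± 0.48, adjusted p = 0.0288). Its call was lost without tendon library 2 or spleen library 2 or 3. A count of 1 in 27 is near the share of all tested genes called higher with library 3 (2.45%). It is below that share without library 3 (9.72%). Of 10 follicular regulatory genes, Icos was the 1 higher gene with library 3, and 4 were higher and 4 lower without it, with medians of -0.40 and -0.42.

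Markers of other cell types moved with the choice of libraries. None of the 18 B cell markers was called with library 3, and 18 were lower without it. Without library 3, 8 of 12 plasma cell, 9 of 12 erythroid, 9 of 17 macrophage and monocyte and 5 of 12 neutrophil markers were lower, and none higher. Igkc, the immunoglobulin kappa constant gene, was at 155, 1178 and 42690 CPM in tendon and at 16970, 29310 and 17550 CPM in spleen. Cd79a, a subunit of the B cell receptor, was at 38.8, 128 and 3719 CPM against 1789, 2362 and 1400. Hba-a1, an alpha globin gene, was at 1115, 1649 and 26890 CPM against 11430, 18350 and 9280. Tendon library 3 was above every spleen library for all 3 genes, and tendon libraries 1 and 2 were below every spleen library. Lyz2 of macrophages and S100a8 of neutrophils followed the same order, at 61.1, 291 and 9955 CPM against 1599 to 3338, and at 33.2, 106 and 3637 CPM against 486 to 2680. Of the 8 lower genes of the rule without library 3, 6 had no count in tendon libraries 1 and 2: Cd209a, P2ry13, Adap2, Arg2, Lpl and Ccl24. The other two were Gpr83 and Haao. In library 3 the 6 genes were at 9.51 to 28.1 CPM, against 0.831 to 23.2 CPM in spleen. The expression cut-off of the rule counted the neonatal libraries too. Cd209a is a dendritic cell lectin and Lpl a lipase that macrophages express. Over all 1615 genes called lower without library 3, library 3 was above every spleen library in 629 (38.95%), against 35.6% of all tested genes. The part of the markers in the lower genes was not tested.

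Tendon fibroblast markers were higher in tendon. They took 0.0116%, 0.0762% and 0.0226% of counts in the tendon libraries and at most 0.00138% in spleen. Of 12 tested, 5 were called higher and none lower with library 3, and 7 without it. Sparc, a collagen-binding matrix protein, was at 39.2, 288 and 217 CPM against 5.82, 5.91 and 0.349 (5.53 ± 1.02, adjusted p = 0.0172). The small proteoglycan gene Dcn was at 6.03, 77.9 and 29.5 CPM against 1.66, 0 and 0.699 (5.49 ± 1.08, adjusted p = 0.019). Col1a2, a chain of type I collagen, was at 15.1, 66.7 and 24.7 CPM (at least 28.2-fold higher), Comp, a tendon and cartilage matrix protein, at 4.15, 29.3 and 11.4 CPM (at least 11.9-fold higher), and Fmod at 8.67, 21.4 and 0.475 CPM (at least 8.11-fold higher). Tendon library 2 was the highest for all 5 genes. The calls of Comp and Sparc were lost without it, those of Dcn and Comp without any single spleen library, and those of Sparc and Col1a2 without spleen library 1 or 2. Fmod lost its call without any single library of the series but adult tendon library 3 and neonatal tendon library 1. Endothelial markers took 0.00531%, 0.0203% and 0.00856% in tendon and 0.00535% to 0.00759% in spleen, so the tissues overlapped. None of 11 was called with library 3, and 5 of 12 were higher without it. Zbtb46, a transcription factor known from classical dendritic cells, was the 1 dendritic marker called higher with library 3, at 95, 75.5 and 10.9 CPM against 1.66, 2.46 and 2.79 (4.69 ± 0.82, adjusted p = 0.00363). The part of these markers in the other results was not tested.

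Tendon library 3 was then placed gene by gene against the other libraries. Of the 1356 genes called higher without it, library 3 was above all 3 spleen libraries in 719 (53.0%), within their range in 453 and below it in 184. Over all tested genes it was above all spleen libraries in 35.6%. Its median level on the 1356 genes was 34.8% of the mean of tendon libraries 1 and 2, and 1.37-fold the spleen mean. Of the 1615 genes called lower without it, library 3 was below all spleen libraries in 330 (20.4%), within their range in 656 (40.6%) and above it in 629 (38.95%). Over all tested genes these shares were 22.0%, 42.4% and 35.6%, close to those of the lower genes. The median level of library 3 on the 1615 genes was 395% of the mean of tendon libraries 1 and 2. Library 3 was at or above the lower of tendon libraries 1 and 2 in 120 of the higher genes. It was at or below the higher of them in 25 of the lower genes.

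**Figure D5:**
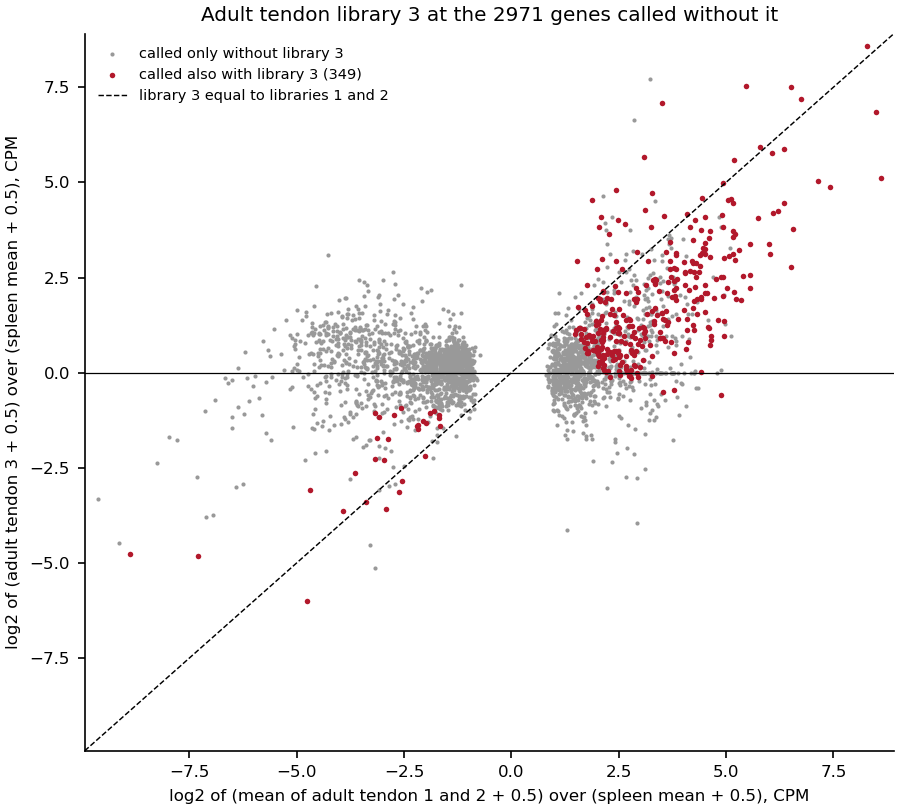
Tendon library 3 (vertical axis) and the mean of tendon libraries 1 and 2 (horizontal axis), both as log2 of CPM + 0.5 over spleen mean + 0.5, at the 2971 genes called without library 3. Library 3 lies on the called side of the spleen mean (the horizontal line) in 338 of the 349 genes called also with it (red). Those genes were chosen with library 3 in the fit, so its side there is no separate support. The other genes are spread to both sides of that line.

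The same tissue difference in neonates served to test which adult differences depend on age. Of the 13049 genes, 399 were called for the difference between the ages (3.06%), and 44 of these were among the 349 genes called in adults. Of the 349 genes, 216 were also called in neonates in the same direction and 5 in the opposite direction. Il1rl1 was higher in tendon by 5.62 in adults and by 1.78 ± 0.53 in neonates on the log2 scale, a difference of 3.84 ± 0.77 (adjusted p = 0.0154). In neonates it stood at 124, 151 and 203 CPM in tendon and 36.7, 48.9 and 53.6 CPM in spleen, so the spleen levels were above those of adults. Il7r was higher in adult tendon and did not pass in neonates (-0.29, adjusted p = 0.636), a difference of 2.15 ± 0.50 (adjusted p = 0.0323). P2rx7 was lower in adult tendon and higher in neonatal tendon (-2.20 and 1.66), a difference of -3.85 ± 0.64 (adjusted p = 0.00615). Atf3 and Ccr1 were higher in tendon at both ages and by less in adults, with differences of -7.20 ± 0.77 (adjusted p = 0.000189) and -4.44 ± 0.57 (adjusted p = 0.00112). Macrophage and monocyte markers took 1.65% to 3.49% of counts in neonatal tendon and 0.0845% to 0.119% in neonatal spleen. The T cell list took 0.178% to 0.328% in neonatal tendon and 0.95% to 1.25% in neonatal spleen, against 0.564% to 1.04% in adult tendon. The part of either list in these differences was not tested. With scaling to the T cell list the Il7r difference was 0.82 (adjusted p = 0.33) and that of Il1rl1 2.59 (adjusted p = 0.0427). The Il7r difference was lost without any single library other than adult or neonatal tendon library 3, and that of Il1rl1 without neonatal tendon library 2 or adult spleen library 1. Gzmb, Gpr83 and Izumo1r had age differences of 0.48, -1.86 and -0.03 that did not pass (adjusted p = 0.791, 0.426 and 0.995).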

How the data were processed

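Bulk RNA-seq was measured in 12 libraries of sorted Tregs, 3 in each of 4 groups, and adult tendon was compared with adult spleen. The deposited tables hold read counts, whole numbers for each gene, and TPM values of the same genes, with the columns of featureCounts per the file headers. The submitters' processing notes name Trimmomatic 0.36, STAR 2.5.2b, featureCounts, Subread 1.5.2, DESeq2 and the build GRCm38. Whether strand was used, and how multiply matching reads were treated, is not given in the sources used here. The deposited TPM equalled counts over gene length, scaled to 1000000, to within 5e-05. Among the 49315 genes listed, 99.5% of identifiers are found in GENCODE M21. Coordinates are on GRCm38. The 176 genes without a symbol stayed in the fits, named by identifier.

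Counts were filtered with filterByExpr (minimum count 10), scaled by TMM and fitted with edgeR 4.0.16 (glmQLFit robust, glmQLFTest) with 1 mean per group over all 12 libraries, since the groups then share 1 estimate of the spread. P-values were adjusted by Benjamini-Hochberg over all tested genes, with a threshold of 0.05. The same fit was made with 11 libraries, without adult tendon library 3. SE is that of the log2 fold change. A gene with at most 3 counts in each library of a group is called at the floor there, and its fold is a lower bound set against 3 counts per library. Wilson intervals (95%) and floors cover counting error only, as no molecular identifiers are named in the sources used here and reads need not stem from separate molecules. Total counts over the 12 libraries ranged from 420731 to 18410744. No pair of libraries of a group agreed within sampling noise (chi-square per degree of freedom of 4.78 or more). The scripts were tested on simulated data.

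Members and lists (21 functional, 13 marker) were chosen with earlier results of these data known. Named genes are Foxp3, the 8 highest and 8 lowest log2 fold changes of each fit among called genes whose groups do not overlap and whose log2 CPM averages 4 or more (blank, predicted and antigen receptor names skipped: 4 and 27 among the lower genes), and members of the lists. The average log2 CPM of this rule was taken over all libraries of a fit, neonatal ones included. Of the named genes, 29 share exonic sequence with another gene, so their counts may be mixed. Promoter windows came from RefSeq (GRCm38.p6), matched by symbol. Alternatives were DESeq2 size factors, scaling without immunoglobulin, hemoglobin and rRNA-like genes, scaling to the T cell list (chosen after seeing the data), the DESeq2 1.42.0 Wald test, limma-voom (limma 3.58.1) with quality weights, 2 other filters, a minimum log2 fold change of 1, the adult libraries alone, the replicate number as a block, limma on log2(TPM + 1) and log2(TPM + 0.1), and each library left out. Some genes are not reported here.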

Additional observations from a re-analysis of the deposited data

Results flagged for a closer look

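The following results stood out because the tissue difference in adults and in neonates differed by the test of that difference itself (edgeR quasi-likelihood, adjusted p over all genes). All values are log2 differences, adults minus neonates, and 3 libraries stand in each group. A larger excess in adult tendon was found for Il1rl1, by 3.84 (adjusted p = 0.0154), and for Itgb3, by 2.84 (2.20 in adults, -0.64 in neonates, adjusted p = 0.0201). The T cell list took 0.178% to 0.328% of the counts in neonatal tendon, against 0.95% to 1.25% in neonatal spleen and 0.564% to 1.04% in adult tendon. For 4 of its 18 genes the difference was called above 0. In adults none of the 18 was called higher in tendon with library 3, and the list median was -0.16. The part of the T cell list in these differences was not tested. With scaling to that list, chosen after seeing the data, Itgb3, Slc2a3, Il7r and Lef1 lost their calls. Slc2a3 differed by 2.60 (2.09 against -0.52, adjusted p = 0.0394) and Il7r by 2.15 (1.85 against -0.29, adjusted p = 0.0323). The resting-state gene Lef1 was lower in tendon by less in adults, with a difference of 1.92 (adjusted p = 0.0316). Tff1 and Il23r had differences of 7.71 and 11.7 (adjusted p = 0.0421 and 0.0175), but adult spleen and neonatal tendon respectively were at the floor for them, so these sizes depend on the fit and are no bound.

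The other genes had differences below 0, which was a smaller excess in adult tendon for all of them but P2rx7. By list, 11 of 27 interferon response genes differed between the ages in this direction, the most of any list. Of 18 AP-1 and immediate early genes 4 did so, of 16 chemokine genes 3 and of 15 heat-shock genes 2. Over all genes 3.06% differed in either direction. The difference was -7.20 for Atf3 (adjusted p = 0.000189), -3.32 for Jun (adjusted p = 0.00551), -3.53 for Cdkn1a (adjusted p = 0.00697), -3.18 for Hspa1a (adjusted p = 0.0394), -2.16 for Hsp90aa1 (adjusted p = 0.0314) and -2.31 for Mt1 (adjusted p = 0.0365). It was -5.43 for Cxcl2 (adjusted p = 0.00835), -4.89 for Cxcl10 (adjusted p = 0.0329), -3.70 for Ifit1 (adjusted p = 0.00917), -4.48 for Lilrb4a (adjusted p = 0.00112) and -4.44 for Ccr1 (adjusted p = 0.00112). P2rx7 had opposite signs at the 2 ages and a difference of -3.85 (adjusted p = 0.00616). Lilrb4a and Ccr1 are also expressed by macrophages. The macrophage and monocyte list took 1.65% to 3.49% of the counts in neonatal tendon, against 0.0388%, 0.114% and 1.47% in adult tendon libraries 1, 2 and 3. The part of those cells in these differences was not tested. Of these 19 differences, 8 to 13 kept their call when any single adult library but tendon library 3, or any single neonatal library but neonatal tendon library 3, was left out. All 19 kept it without adult tendon library 3, and 18 without neonatal tendon library 3. On the 3 TPM settings 4, 1 and 1 of them kept it, and 12 with the replicate block.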

How the results depend on the processing

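The 349 genes called in adults became 752 with the DESeq2 Wald test, 4871 with limma-voom quality weights (43.9% higher in tendon, against 91.7%), 765 with no filter on low counts and 51 in the adult libraries alone. On log2(TPM + 1), log2(TPM + 0.1) and unfiltered TPM they were 57, 46 and 36. Leaving out 1 library gave 131 to 2971, the highest without tendon library 3 and the lowest without spleen library 1. The 2971 called without tendon library 3 became 5033 with limma-voom, and 1118 to 3457 with a further library left out, the lowest without tendon library 1. The TPM fits shifted the median of all genes to 0.57 (pseudocount 1) and called 82.5% to 83.6% higher, against 45.6%. The 399 differences between ages became 858 with the Wald test, 2507 with limma-voom, 974 with no filter, 187, 19 and 24 on the 3 TPM settings and 97 to 2116 with 1 library left out. Scaling to the T cell list, chosen after seeing the data, gave 523 genes in adults (97.7% higher), 2261 without tendon library 3 (65.1% higher) and 1483 differences between ages (1.42% higher), with a median shift of -1.12 in the last. The cause of these changes was not tested.

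Of 91 named genes called in adults, 26 of the 88 tested kept the call in the adult libraries alone, and 16 to 29 on TPM. Of 129 called without tendon library 3, 110 kept it with any other library left out. Changed signs were found for Lrrc32 (-0.13 on log2(TPM + 0.1)) and for Mki67, which was called in neither fit. With library 3 Mki67 was -0.167 with limma-voom and ranged from -0.133 (without tendon library 3) to 0.343 with 1 library left out. Without library 3 it was 0.0185 with scaling without immunoglobulin, hemoglobin and rRNA-like genes, 0.0417 in adults alone, 0.682, 0.724 and 0.682 on TPM, 0.167 with T cell list scaling, and -0.386 to 0.085 with a further library left out.

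Deviations of same-numbered adult libraries had correlations of 0.03, -0.17 and -0.16, against -0.15 to 0.21 for adult libraries of different number. In neonates these were 0.25, 0.04 and 0.04, against -0.12 to 0.05. Deviations from a mean of 3 libraries cannot settle whether the numbers mark pairs. The numbers were not taken as pairs in the main fits. With the replicate block, 218 genes were called in adults, 2895 without tendon library 3 and 238 between ages. Depth of 420731 counts in the shallowest neonatal library limits the comparison of ages.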
